A study of Homo sapiens with 6 samples.

Results

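The S100A genes described here are 10 human genes of the S100 family, chosen by name: S100A2, S100A4, S100A6, S100A7, S100A8, S100A9, S100A10, S100A11, S100A14 and S100A16. All 10 were found, each with 1 row, among the 58302 genes of the deposited table. The samples were cultures of ME180, an established human cervical cancer line of epithelial morphology. In 1 group a small interfering RNA against the kinase SGK1 (siSGK1) had been transfected 48 h before RNA extraction, and in the other a control siRNA (siControl). Each group had 3 libraries of polyA RNA, numbered 2, 3 and 4, which the series calls biological repeats. All cultures were of a single cell line, and each siRNA is given by its name alone in the sources used here.

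S100 proteins are small calcium-binding proteins that fold around EF hands, the loops that hold calcium. Most work as dimers that change shape when they bind calcium and then attach to a partner protein. Several are made by stratified epithelia: S100A8 and S100A9 pair as calprotectin, which withholds zinc and manganese from microbes, S100A7 (psoriasin) is an antimicrobial protein of skin, and S100A10 and S100A11 attach to annexins at membranes. S100A8, S100A9 and S100A12 are also abundant in neutrophils and monocytes.

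The targeted transcript was lower in the siSGK1 libraries. SGK1 measured 1.58, 1.70 and 1.81 FPKM in siSGK1 and 3.91, 4.27 and 4.17 FPKM in siControl (FPKM are fragment counts corrected for the length of a gene and the size of its library; log2 change −1.07, SE 0.07, limma adjusted p = 1.88e-05; exact two-sided permutation p = 0.1, the smallest that 3 against 3 libraries allow). Reads assigned to genes numbered 28405647 to 35242643 in siSGK1 and 27262794 to 27874948 in siControl. Mitochondrially encoded genes took 3.50% ± 0.14 of reads in siSGK1 and 4.25% ± 0.13 in siControl (SD, n = 3 each). The share held by the 50 genes with the highest read counts was 16.9% ± 0.57 in siSGK1 and 20.1% ± 0.08 in siControl. The part of these differences in the results below was not tested.

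After SGK1 knockdown 9 of 10 S100A transcripts were lower and 0 were higher; 7 were lower under quantile normalization, where S100A2 and S100A11 turned sign and S100A14 was higher. The largest falls were in S100A7, S100A8 and S100A9, and S100A14 was the gene that was not called. Calls are from limma on log2(FPKM + 0.5) over 11945 genes whose mean FPKM reached 1, at an adjusted p below 0.05, and all 10 S100A genes passed that filter. Over all tested genes 22.7% were called lower and 17.9% higher, so that 44.2% of calls were higher, against 73.6% with total-read scaling and 82.8% with TPM scaling. At an unadjusted p below 0.05, limma gave the same 9 lower and 0 higher. On recovered reads, limma's voom called 9 lower and 0 higher. It used the library sizes that the FPKM imply, and so kept the deposited scaling. The median log2 change of the 10 genes was −0.43, against −0.006 over all genes tested. Of the 10, 8 had a mean of at least 100 FPKM, a level at which 61.2% of tested genes were called lower, with a median of −0.23. In all 10 genes every siSGK1 library lay below every siControl library at the deposited scaling, which held for 28.8% of all tested genes. For S100A14 this rests on that scaling, since its log2 change was 0.05 after total-read scaling. In these bulk samples, fewer cells that express a gene and less of its RNA per cell cannot be told apart.

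**Figure D1:**
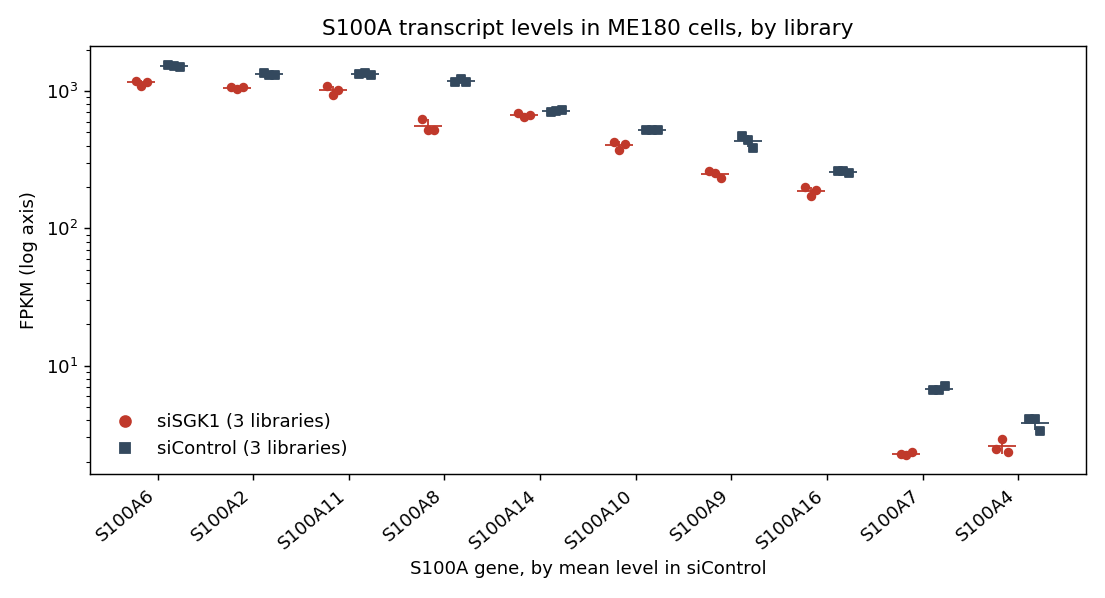
FPKM of the 10 S100A genes on a log axis in each of 3 siSGK1 libraries (red circles) and 3 siControl libraries (dark squares), with bars for the mean and SD of each group. At the deposited scaling the siSGK1 points lie below the siControl points in all 10 genes, narrowly so in S100A14. The widest gaps are in S100A7 (2.29 against 6.76 FPKM) and S100A8 (557 against 1187 FPKM).

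S100A8 and S100A9, the calprotectin subunits, were abundant in the control cells and fell after knockdown. S100A8 (ENSG00000143546, chromosome 1, 153390032 to 153391188, minus strand, GRCh38) measured 631, 521 and 519 FPKM in siSGK1 replicates 2, 3 and 4, and 1162, 1227 and 1172 FPKM in siControl. Every siSGK1 library had less than the lowest siControl library, and replicate 2 was the highest of the siSGK1 group. The means were 557 ± 63.9 FPKM in siSGK1 and 1187 ± 34.9 FPKM in siControl (SD, n = 3 each), 46.9% of the control level (log2 change −1.10, SE 0.08, adjusted p = 2.83e-05). Of all 11945 tested genes, 77 had a lower log2 change.

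S100A9 (ENSG00000163220, 153357854 to 153361027, plus strand) had 261, 255 and 232 FPKM in siSGK1 and 471, 439 and 386 FPKM in siControl. The groups did not overlap, although the siControl libraries were more spread (coefficient of variation 6.22% in siSGK1 and 9.96% in siControl). S100A9 fell to 57.7% of the control level (log2 change −0.79, SE 0.08, adjusted p = 0.000141). The ratio of S100A8 to S100A9 FPKM within a library was 2.42, 2.05 and 2.24 in siSGK1 and 2.47, 2.80 and 3.04 in siControl. These ratios do not depend on the factor by which a library is scaled, although quantile normalization can change them. They were lower in each siSGK1 library than in each siControl library by a narrow margin, and the difference was not tested.

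S100A7, the antimicrobial psoriasin, was a low transcript with the largest fall of the family. S100A7 (ENSG00000143556, 153457744 to 153460701, minus strand) measured 2.28, 2.25 and 2.34 FPKM in siSGK1 and 6.61, 6.62 and 7.06 FPKM in siControl. The log2 change was −1.38 (SE 0.05, adjusted p = 2.89e-06), and 30 of the 11945 tested genes had a lower one. Only 36, 40 and 46 reads lie behind the siSGK1 values, and 93, 92 and 102 reads behind the siControl values. Counting error alone is 15.7% of the mean in siSGK1 and 10.2% in siControl, so the replicate SDs of 1.98% and 3.79% understate the uncertainty of this gene. With voom, which weights genes by their reads, the log2 change of S100A7 was −1.55 with an SE of 0.19. S100A7A, a close paralog that could share reads with S100A7, had a mean of 0.009 FPKM in siSGK1 and 0.006 FPKM in siControl.

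S100A2, S100A14 and S100A16 are epithelial members of the family, S100A2 being a gene of basal keratinocytes that p63 can activate. S100A2 (ENSG00000196754, 153561108 to 153567890, minus strand) measured 1066, 1031 and 1073 FPKM in siSGK1 and 1355, 1318 and 1316 FPKM in siControl. The libraries of each group lay close together and the groups were apart, and S100A2 fell to 79.5% of the control level (log2 change −0.33, SE 0.04, adjusted p = 0.000638). S100A16 (ENSG00000188643, 153606886 to 153613145, minus strand) measured 199, 172 and 191 FPKM in siSGK1 and 261, 261 and 254 FPKM in siControl. It fell to 72.4% of the control level (log2 change −0.47, SE 0.06, adjusted p = 0.000428).

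S100A14, the neighbour of S100A16 on the same strand, was the gene of the family with the smallest difference. S100A14 (ENSG00000189334, 153614255 to 153616986, minus strand) had 697, 649 and 671 FPKM in siSGK1 and 699, 717 and 731 FPKM in siControl. The highest siSGK1 library all but reached the lowest siControl library. The log2 change was −0.09 with a 95% confidence interval from −0.20 to 0.02 (adjusted p = 0.16), so a fall as large as the one of S100A2 lies outside the interval and no change lies inside it. The log2 change of S100A14 was 0.05 after total-read scaling (adjusted p = 0.24). After TPM scaling it was 0.11 (adjusted p = 0.017), but both scalings raised the median of all genes, to 0.12 and 0.18. Relative to the median gene, S100A14 stood at −0.08 as deposited, −0.07 with total-read scaling and −0.06 with TPM scaling, so its place barely moved. With quantile normalization it was above the median gene, with a log2 change of 0.22 (adjusted p = 0.000456).

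S100A6, S100A10 and S100A11 bind annexins and were among the most abundant transcripts of these cells. S100A6 (calcyclin; ENSG00000197956, 153534599 to 153536244, minus strand) measured 1193, 1097 and 1173 FPKM in siSGK1 and 1535, 1521 and 1496 FPKM in siControl. It ranked 22 to 24 among protein-coding genes in the 6 libraries and fell to 76.1% of the control level (log2 change −0.40, SE 0.05, adjusted p = 0.000459). Its exons overlap 23 bases of the antisense gene BX470102.1, which had a mean of 1.79 FPKM. No other S100A gene described here shares exon bases with another gene.

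S100A11 (ENSG00000163191, 152032506 to 152047907, minus strand) measured 1095, 937 and 1010.4 FPKM in siSGK1 and 1322, 1352 and 1299 FPKM in siControl. Replicate 3 was the lowest siSGK1 library, as it was for S100A6, S100A2, S100A10, S100A14, S100A16 and S100A7. The log2 change of S100A11 was −0.39 (SE 0.06, adjusted p = 0.00156). S100A10 (ENSG00000197747, 151982915 to 151994390, minus strand) is the light chain that binds annexin A2 and is held in a calcium-ready shape without calcium. It had 424, 371 and 410.2 FPKM in siSGK1 and 518, 521 and 518 FPKM in siControl. Its siControl libraries varied by 0.299% (coefficient of variation) and its siSGK1 libraries by 6.90%, and the groups did not overlap (log2 change −0.37, SE 0.06, adjusted p = 0.00115).

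S100A4, which binds non-muscle myosin and is known for its link to cell motility, was low in both groups. S100A4 (ENSG00000196154, 153543613 to 153550136, minus strand) had 2.46, 2.92 and 2.37 FPKM in siSGK1 and 4.09, 4.10 and 3.33 FPKM in siControl. The reads behind these were 74, 99 and 89 in siSGK1 and 110, 109 and 92 in siControl, so the read counts themselves overlap and the separation rests on the scaling of the libraries. The log2 change was −0.49 (SE 0.10, adjusted p = 0.00411). It was −0.32 with TPM scaling, where the adjusted p was 0.033.

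The order of the levels was much the same in both groups, with S100A8 as the main exception. In siSGK1 the order by mean FPKM, a scale that corrects for length, was S100A6, S100A2, S100A11, S100A14, S100A8, S100A10, S100A9, S100A16, S100A4 and S100A7. In siControl it was S100A6, S100A2, S100A11, S100A8, S100A14, S100A10, S100A9, S100A16, S100A7 and S100A4. S100A2 and S100A11 could not be ranked in either group, since their libraries overlapped, and no other neighbours in the order overlapped. S100A8 stood below S100A14 in every siSGK1 library and above it in every siControl library. S100A7 and S100A4 stood far below the other 8 genes, and the narrow gap between them in siSGK1 is within their counting error.

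The 10 genes together summed to 5298 ± 267 FPKM in siSGK1 and 7293 ± 98.3 FPKM in siControl (SD, n = 3 each). They took 0.630% ± 0.014 of all reads in siSGK1 and 0.772% ± 0.00086 in siControl. S100A8 made up 10.5% ± 0.76 of the summed S100A level in siSGK1 and 16.3% ± 0.41 in siControl, while S100A14 made up 12.7% ± 0.18 in siSGK1 and 9.81% ± 0.33 in siControl. Shares of S100A16 overlapped between the groups, at 3.41% to 3.62% in siSGK1 and 3.54% to 3.55% in siControl. S100A8 and S100A9 together made up 15.2% ± 0.92 in siSGK1 and 22.2% ± 0.47 in siControl. Such shares are taken within a library and do not depend on the factor by which it is scaled, although quantile normalization can change them.

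**Figure D2:**
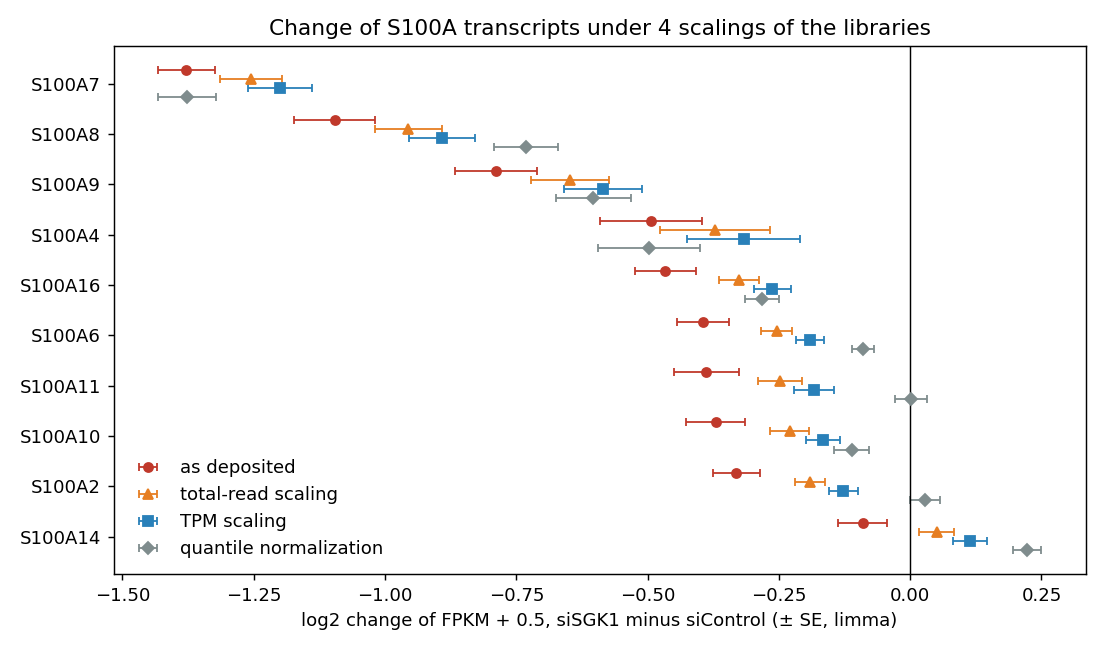
Log2 change of each S100A gene, siSGK1 minus siControl, with its SE from limma, as deposited and under 3 other scalings of the libraries. S100A7, S100A8, S100A9, S100A4 and S100A16 stay clearly below 0 under all 4, whereas S100A2 and S100A11 reach 0 under quantile normalization (0.03 and 0.001). S100A14 lies above 0 under the other 3, but above the median of all genes (0.12, 0.18 and 0.01) under quantile normalization alone.

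Scaling a library by another factor shifted all genes together, whereas quantile normalization changed the genes by unequal amounts. The median log2 change over all tested genes was −0.006 for the FPKM themselves, 0.12 after total-read scaling and 0.18 after TPM scaling. The changes given here are differences of group means, not centred on that median. Relative to the median gene, the changes of S100A8 were −1.09 as deposited, −1.08 with total-read scaling and −1.07 with TPM scaling, and those of S100A2 were −0.33, −0.31 and −0.30. The number of S100A genes called lower was 9 with total-read scaling and 9 with TPM scaling, and 7 with quantile normalization, where S100A2 (log2 change 0.03, adjusted p = 0.45) and S100A11 (0.001, adjusted p = 0.98) turned sign. S100A8 remained lower under quantile normalization (−0.73, adjusted p = 6.95e-05), as did S100A9 (−0.60) and S100A7 (−1.38).

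Abundant transcripts as a whole were lower in siSGK1, and the S100A genes have to be read against that. Of the 469 genes whose mean FPKM reached 100, 61.2% were called lower, with a median log2 change of −0.23. At this level 7 of 8 S100A genes were called lower, with a median of −0.39. Of the 40 genes with a mean of at least 1000 FPKM, 90.0% were called lower with a median of −0.39, and S100A6, S100A2 and S100A11, with changes of −0.40, −0.33 and −0.39, lie at that median. Of the 469 genes that reached 100 FPKM, 8 had a lower log2 change than S100A8, and 17 had a lower one than S100A9. Among the 8 was the epithelial keratin KRT14, with a mean of 965 FPKM and a log2 change of −1.36. S100A8, with a mean of 872 FPKM, was not compared with genes of its own level alone.

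**Figure D3:**
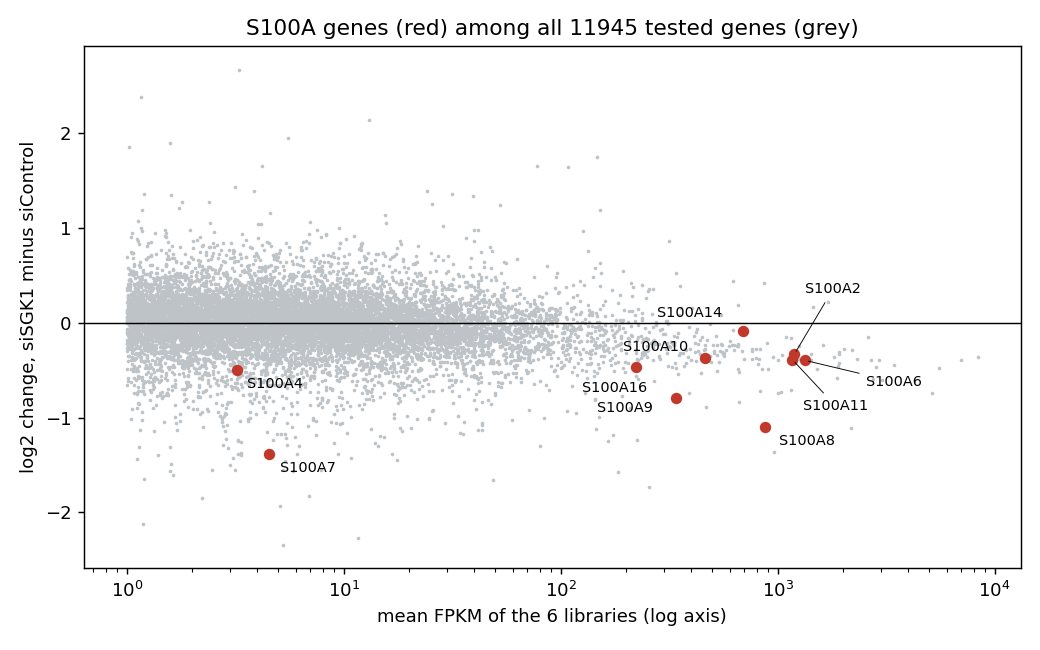
Log2 change, siSGK1 minus siControl, against mean FPKM on a log axis for all 11945 tested genes (grey), with the 10 S100A genes in red. At the right end most grey points lie below 0 and S100A6, S100A2 and S100A11 lie among them, while S100A8 (−1.10), S100A9 (−0.79) and S100A7 (−1.38) lie near the lower edge.

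All 10 genes lie on chromosome 1, in 2 runs of S100 genes separated by genes of the cornified envelope, the protein shell of skin cells. S100A10 and S100A11 form the first run. The second run holds 15 S100 genes, from S100A9 to S100A1, 8 of which are among the 10. The changes in the second run fell into a left and a right stretch. The genes at its left end had log2 changes of −0.79 (S100A9), −0.64 (S100A12), −1.10 (S100A8) and −1.38 (S100A7). Those to the right, from S100A6 to S100A13, lay between −0.49 (S100A4) and −0.09 (S100A14). The division after S100A7 was made after these values were seen, and it was not tested.

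Most tested genes between the runs were also lower. Of 17 tested genes of the region without an S100 name, 12 were called lower and 1 higher, with a median log2 change of −0.88. These 17 include CRNN and TCHHL1, which are fused-type S100 genes and were both called lower. Over all tested genes 22.7% were called lower and 17.9% higher. The nearest tested neighbour to the left of the second run was PGLYRP3, a peptidoglycan recognition protein of skin. It measured 0.44 ± 0.12 FPKM in siSGK1 and 1.85 ± 0.43 FPKM in siControl (log2 change −1.31, adjusted p = 0.000294). Only 13, 14 and 25 reads lie behind its siSGK1 values, and 70, 56 and 45 behind its siControl values. PGLYRP3 and SPRR2D, both among the 12 called lower, reached the filter of 1 FPKM through siControl alone. SPRR2D had 0.97 FPKM in siSGK1 and 2.53 FPKM in siControl. The nearest to the right of the second run was CHTOP, an RNA export factor. It measured 11.6 ± 0.36 FPKM in siSGK1 and 10.8 ± 0.35 FPKM in siControl (log2 change 0.11, adjusted p = 0.11). Beside the first run lie THEM4, a thioesterase (log2 change −0.02, adjusted p = 0.87), and TCHHL1, a fused-type S100 gene (log2 change −0.29, adjusted p = 0.0055).

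**Figure D4:**
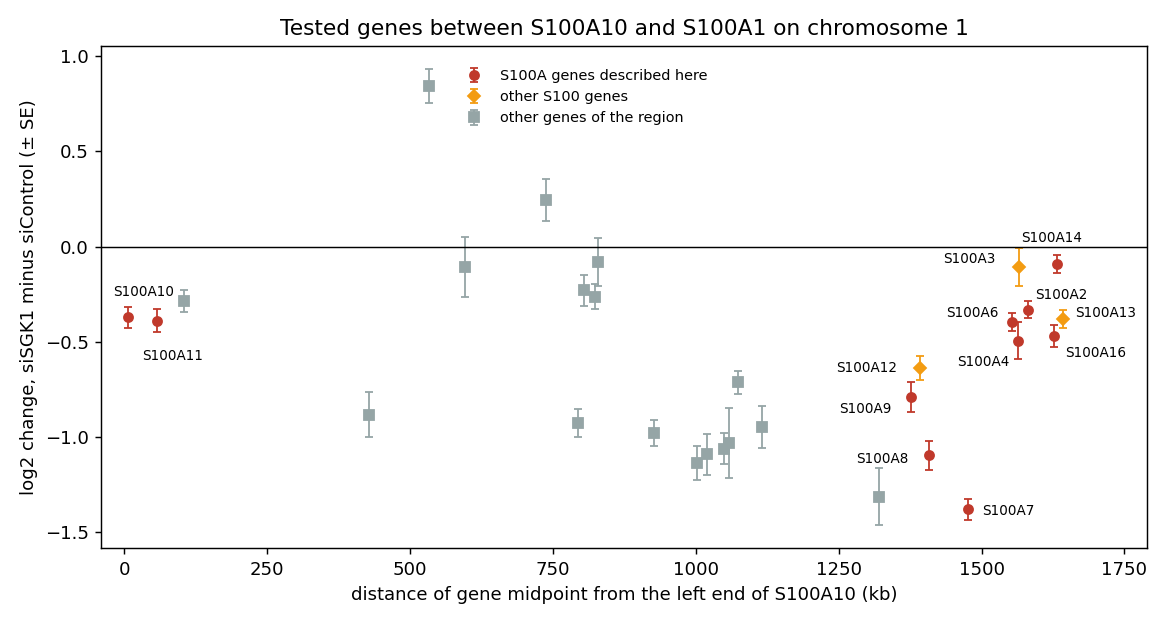
Log2 change with its SE, siSGK1 minus siControl, of the 30 tested protein-coding genes between S100A10 and S100A1, by distance of the gene's midpoint from the left end of S100A10 in kb. S100A7, S100A8, S100A9 and S100A12 (−1.38, −1.10, −0.79 and −0.64) lie lower than the S100 genes to their right, which lie between −0.49 and −0.09.

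The TATA letters TATAAA occurred before S100A7, S100A8 and S100A9, the 3 genes with the largest falls, and before S100A4, in the 250 bases before a RefSeq transcription start. The first T lies 28 bases before the start in S100A7, 29 in S100A8 (at the start at 153391073) and in S100A9, and 31 in S100A4. Over all 35116 RefSeq starts searched in the same way on both strands, 10.7% hold these letters, against 5 of the 14 starts of the S100A genes. Overlapping windows of S100A8 hold the same TATAAA, so that site is counted at more than one of its starts. The fall of S100A4 cannot be ranked against that of S100A16, which holds no TATAAA: S100A16 fell more in 5 of 14 alternative settings. The overlap was noticed after the values were known, has no test, and does not show that the letters matter for the change. The last 100 bases before the start (RefSeq, GRCh38.p14) are printed below for these genes and for S100A2 and S100A14, which hold no exact TATAAA. S100A14 does hold tataag, with its first t 29 bases before the start, and S100A6 holds tataag too. Near matches to TATAAA were not searched for. Capitals mark motif matches, TATAAA or, in S100A2, the AP-1 letters TGANTCA.
S100A7, chr1:153460652-153460751, minus strand: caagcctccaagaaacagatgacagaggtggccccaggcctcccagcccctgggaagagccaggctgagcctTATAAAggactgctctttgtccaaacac
S100A8, chr1:153391074-153391173, minus strand: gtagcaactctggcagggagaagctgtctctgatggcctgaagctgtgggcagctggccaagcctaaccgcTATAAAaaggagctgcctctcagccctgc
S100A9, chr1:153357754-153357853, plus strand: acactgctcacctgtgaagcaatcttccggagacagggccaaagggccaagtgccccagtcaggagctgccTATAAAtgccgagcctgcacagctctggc
S100A4, chr1:153545807-153545906, minus strand: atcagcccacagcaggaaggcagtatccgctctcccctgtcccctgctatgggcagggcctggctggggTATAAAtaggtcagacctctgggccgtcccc
S100A2, chr1:153565845-153565944, minus strand: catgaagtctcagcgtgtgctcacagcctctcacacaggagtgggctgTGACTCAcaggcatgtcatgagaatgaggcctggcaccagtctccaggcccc
S100A14, chr1:153616326-153616425, minus strand: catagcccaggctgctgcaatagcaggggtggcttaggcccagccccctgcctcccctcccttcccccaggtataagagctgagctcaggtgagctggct

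RefSeq gives 3 starts for S100A8 and 2 each for S100A2 and S100A16, so 14 windows of 250 bases were searched. The C/EBP letters TTNNGNAA occurred before S100A6, S100A8, S100A9, S100A11 and S100A16, at 6 of these 14 starts, against 33.2% of all starts. Overlapping windows of S100A8 also share a C/EBP match. The TGANTCA match of S100A2 was the only AP-1 match, at 1 of 14 starts, against 6.57% of all starts. The letters AACNNGTT of grainyhead-like factors occurred at 1 of 14 starts, that of S100A9 (3.0% of all starts), and the STAT letters TTCNNNGAA before none (6.57% of all starts). Both strands were searched, and matches of different motifs did not overlap.

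Of transcription factors known to act on S100A genes or in the same epithelial programme, 12 of 13 were tested, and 6 fell and 2 rose (median log2 change −0.18). Among all tested genes 22.7% fell and 17.9% rose. CEBPA, a factor of keratinocyte and myeloid differentiation, had 4.65 ± 0.32 FPKM in siSGK1 and 9.82 ± 0.42 FPKM in siControl (log2 change −1.005, adjusted p = 1.54e-05). GRHL3, a grainyhead-like factor of the epidermal barrier, had 13.4 ± 0.71 FPKM in siSGK1 and 22.2 ± 0.66 FPKM in siControl (log2 change −0.71). ZNF750, a factor of terminal epidermal differentiation, fell by 0.52 on the log2 scale. JUN, a subunit of AP-1, rose to 15.6 ± 0.74 FPKM in siSGK1, against 9.58 ± 0.83 FPKM in siControl. TP63, the p63 gene, was picked with its values in view and measured 38.6 ± 0.89 FPKM in siSGK1 and 38.6 ± 2.5 FPKM in siControl (adjusted p = 0.98).

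Annexins, the membrane partners of S100A6, S100A10 and S100A11, did not move as one. Of 10 tested of 13, 5 fell and 2 rose, with a median log2 change of −0.14. The shares over all tested genes were 22.7% lower and 17.9% higher, and 61.2% were lower among those of at least 100 FPKM. ANXA8 (40.8 ± 1.1 FPKM in siSGK1, 54.3 ± 2.3 FPKM in siControl) and its near-identical copy ANXA8L1 fell by 0.41 and 0.43 on the log2 scale, values that are uncertain because the copies may share reads. ANXA9 fell by 0.43, and ANXA7 rose by 0.31. ANXA2, the partner of S100A10, had 194 ± 5.2 FPKM in siSGK1 and 218 ± 5.2 FPKM in siControl (log2 change −0.17, adjusted p = 0.013). ANXA1, the partner of S100A11, had 168 ± 8.7 FPKM in siSGK1 and 177 ± 12.5 FPKM in siControl (adjusted p = 0.40). These last 2 were chosen as known partners after their values were seen.

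Intracellular partners were also mixed, with 5 lower and 2 higher of 10 tested of 12 (median log2 change −0.13). For all tested genes the shares were 22.7% lower and 17.9% higher. TRPV6, a calcium channel that S100A10 with annexin A2 helps to bring to the membrane, had 1.61 ± 0.17 FPKM in siSGK1 and 3.86 ± 0.09 FPKM in siControl (log2 change −1.05, adjusted p = 3.01e-05). FABP5, a fatty acid-binding protein that associates with S100A7, fell by 0.51 on the log2 scale. AHNAK, a large scaffold bound by S100A10, fell by 0.28. MYH9, the non-muscle myosin heavy chain bound by S100A4, was picked with its values in view and rose to 108 ± 9.0 FPKM in siSGK1, against 86.7 ± 2.6 FPKM in siControl (adjusted p = 0.0048).

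Of the receptors and surface partners through which secreted S100 proteins act, 4 of 7 were tested. NPTN (neuroplastin, which binds S100A8) had 33.01 ± 0.77 FPKM in siSGK1 and 46.2 ± 2.1 FPKM in siControl (log2 change −0.48, adjusted p = 0.000152). MCAM, another receptor of calprotectin, fell by 0.45 on the log2 scale and ALCAM, a related adhesion molecule, rose by 0.21. BSG (basigin), which binds S100A9, had 181 ± 16.7 FPKM in siSGK1 and 189 ± 7.8 FPKM in siControl (adjusted p = 0.51). TLR4, a receptor of calprotectin, was at 0 reads in every library. AGER, the receptor for advanced glycation end products, had 0.80 ± 0.11 FPKM in siSGK1 and 0.68 ± 0.25 FPKM in siControl, below the filter.

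Other S100 genes were lower or not called. Of 11, 4 were tested, 3 fell, and all 4 log2 changes were below 0. Among all tested genes 22.7% fell. S100P, a placental S100 gene that lies on chromosome 4, had 16.4 ± 0.68 FPKM in siSGK1 and 33.2 ± 0.58 FPKM in siControl (log2 change −0.999, SE 0.05, adjusted p = 5.91e-06). S100A12 (calgranulin C) had 11.5 ± 0.81 FPKM in siSGK1 and 18.2 ± 0.93 FPKM in siControl, and S100A13 had 19.8 ± 0.96 FPKM in siSGK1 and 25.8 ± 0.44 FPKM in siControl. S100A3, a gene of hair cuticle, was not called, at 6.17 ± 0.35 FPKM in siSGK1 and 6.72 ± 1.06 FPKM in siControl (adjusted p = 0.44). Exons of S100A13 overlap those of S100A1 on the other strand over 235 bases, but S100A1 had a mean of 0.20 FPKM. Of 7 fused-type S100 genes, which join an S100 domain to long repeats, CRNN (cornulin) and TCHHL1 were tested and both fell. CRNN had 5.46 ± 0.94 FPKM in siSGK1 and 10.4 ± 1.1 FPKM in siControl.

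The label of epithelial cells matched the markers. All 12 epithelial markers had a mean of at least 1 FPKM, and their summed level was 8070 to 9393 FPKM in siSGK1 and 12313 to 13226 FPKM in siControl. Of these 12, 8 were called lower, while EPCAM, CDH1, TP63 and KRT18 were not called. The share called lower was 22.7% over all tested genes and 61.2% over those of at least 100 FPKM. The fall of the epithelial markers moved with the S100A genes, and its part in their result was not tested. Of 13 leukocyte markers, 0 had a mean of at least 1 FPKM, and FCGR3B, TYROBP and AIF1 were at 0 reads in every library. Their summed level was 0.41 to 0.51 FPKM in siSGK1 and 0.27 to 0.40 FPKM in siControl, so the S100A8 and S100A9 levels stood beside almost no myeloid marker reads. Fibroblast markers summed to 5.30 to 6.27 FPKM in siSGK1 and 5.14 to 5.81 FPKM in siControl, nearly all of it COL1A1. Endothelial markers summed to 0.71 to 0.88 FPKM in siSGK1 and 1.38 to 1.66 FPKM in siControl, most of it VWF.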

How the data were processed

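The authors deposited FPKM for 58302 genes, 1 column per library, named in the file header. Per the submitters' processing notes, bcl2fastq 2.19, HISAT2 2.0.5 and featureCounts 1.5.0-p3 were used with build hg19. The table's gene positions are those of GRCh38: 97.6% of 57980 identifiers shared with GENCODE 29, and all 10 S100A genes, had the same coordinates. The sources used here give neither the strand setting nor how multi-mapped reads were treated.

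Multiplying FPKM by gene length gave whole reads for 100% of non-zero values (tolerance 0.001). The library sizes this implies were 0.952 to 0.967 of the read total in siControl and 1.04 to 1.09 in siSGK1. Compared with scaling by read totals, the deposited scaling thus lowers siSGK1 values relative to siControl values. Differences came from limma 3.58.1 (R 4.3.3) on log2(FPKM + 0.5) (empirical Bayes with a trend, two-sided, siSGK1 minus siControl), Benjamini-Hochberg adjusted over 11945 genes with mean FPKM of at least 1. The fit was tested on simulated data. Fold changes on this scale understate the change of low genes. Replicates differed by more than counting noise (chi-square per degree of freedom 3.14 to 7.60). The repeats are called biological in the series' design, which does not mention separate cultures, so p-values measure the spread between these libraries.

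The 10 genes and all lists were chosen with earlier results of these data known. Named are the 10 genes and SGK1, all tested other S100 genes, up to 4 genes of smallest p per list of partners and regulators, and the tested neighbours of each run of S100 genes; others are marked. 1 gene that this rule names is not reported here. Promoter windows are from RefSeq (Python 3.11.15); all 10 genes matched by symbol.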

Additional observations from a re-analysis of the deposited data

How the results depend on the processing

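The alternatives were pseudocounts 0.1 and 1, no filter, mean FPKM of at least 5, total-read, TPM and quantile scaling, voom, the replicate block, and each library left out. SGK1 stayed called lower wherever it was tested. Of 148 values of single S100A genes, 143 kept direction and call and 5 turned sign. These were S100A14 with total-read scaling (0.0505), TPM scaling (0.11) and quantile normalization (0.22), and S100A2 (0.0288) and S100A11 (0.00108) with quantile normalization. Total-read and TPM scaling shift the median of all genes to 0.12 and 0.18, and S100A14 stayed below that median in both. These 2 turns came with a shift of all genes, and which scaling is right was not tested. The cause of the other 3 was not tested. S100A genes called higher numbered 1 (S100A14) under TPM scaling, with its shift of all genes, 1 (S100A14) under quantile normalization, and 0 otherwise. The median log2 change of the S100A genes was −0.43 as deposited, −0.29 with total-read scaling, −0.23 with TPM scaling and −0.20 with quantile normalization. Leaving out a library gave −0.46 to −0.38, with 9 genes called lower each time. The filter of 5 removed S100A7, S100A4 and SGK1. Deviations of same-numbered libraries from their group means correlated at 0.12, 0.01 and −0.10, and siSGK1 replicate 3 correlated best with siControl replicate 4. With 3 libraries per group, whose deviations sum to 0, these values cannot decide whether the replicate numbers pair the libraries. With the replicate block the S100A genes had 9 calls lower and 0 higher and a median of −0.43, and over all genes 2549 were lower and 2011 higher, against 2709 and 2143 without it. Without a level filter, 2090 of 31878 genes were called lower and 1674 higher. Total-read scaling gave 1546 lower and 4309 higher, and TPM scaling 1171 lower and 5644 higher. Depth limits S100A7 and S100A4 (36 to 110 reads).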
